A study of Mus musculus with 15 samples.

Results

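The ileum of 10 mice that had been given grape proanthocyanidins (PAC) of either polymer size was compared with that of 5 mice that had been given water. The 10 PAC mice were taken as one group to look for the response that both sizes share, though either size alone can move the pooled mean. These 15 mice were all of the mice measured. All were female C57BL/6 mice of 8 weeks by the labels. The methods give a younger age on arrival and the substrain C57BL/6JOlaHsd. All were kept on the same purified control diet. PAC of low molecular weight (5 mice, low mDP PAC) or high molecular weight (5 mice) was given by gavage at 200 mg/kg every 2 days over 10 days, and the controls received the water in which the PAC were dissolved. The methods name the larger fraction medium mDP PAC, where mDP is the mean degree of polymerization, and that name is used here. Each mouse gave 1 library, made from a piece of its ileum, and counts as 1 replicate.

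PAC are chains of flavan-3-ol units found in grape skin and seed, and chains of more than a few units are poorly absorbed, so that most of a dose passes along the gut lumen. The ileum is the last segment of the small intestine. Its enterocytes digest and absorb remaining nutrients at a brush border and take up bile acids. Around them lie crypts with stem, Paneth and goblet cells, immune cells of the lamina propria and Peyer patches, and smooth muscle with enteric neurons.

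No gene passed an adjusted p of 0.05 in edgeR's quasi-likelihood test of the 10 PAC mice against the 5 water mice (0 of 14386 genes, 0.0%). The lowest adjusted p was 0.0831, for Slc28a2. Without adjustment, 1504 genes (10.5%) had a p under 0.05, 486 higher with PAC (3.38%) and 1018 lower (7.08%). The split depended on the scaling, since upper-quartile normalization gave 869 higher (6.04%) and 547 lower (3.8%) against 486 and 1018. With limma on log2(FPKM + 0.1), where the input and the test differ as well, 1523 were higher (10.6%) and 354 lower (2.46%). With the replicate number as a block 3.23% of all genes were higher and 5.9% lower. Counts within a gene list are to be read against the share of the same alternative. Each of the 67 genes followed through every alternative kept its sign. Most of them were picked for a small p, so that a change of sign was unlikely from the start. DESeq2 without its own filter called 41 genes (0.285%) on the same counts, 15 higher and 26 lower with PAC. The limma fit called 4. The edgeR test called 2 (Slc28a2 and Slc23a4) when the mean of the low and the medium mDP coefficients of a 3-group model was tested. On simulated counts for 10 and 5 mice, edgeR called 84 of 100 genes changed 2-fold and 99 of 100 changed 4-fold, with 7 false calls. DESeq2 called as many with 24 false calls. Each simulated gene was drawn on its own, with no mouse standing apart and no shift shared between genes. These shares therefore need not hold for the real mice.

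The groups also stood apart in few genes. On the scaled CPM, all 10 PAC mice lay above all 5 water mice in 6 genes (0.0417%) and below them in 34 (0.236%), while in FPKM the numbers were 35 and 9. The split of PAC and water mice held 11.6% of the variance of log2(FPKM + 1) over genes (exact permutation test over all ways of choosing 5 of 15 mice, one-sided p = 0.0230). That p was 0.119, 0.131 and 0.0549 without water mouse 1, 3 or 4 by the same exact permutation test, 0.0673 without scaling the genes and 0.133 over the 500 most variable genes. The low and the medium mDP mice did not part from each other in any gene past an adjusted p of 0.05 (0 of 14386 genes, 0.0%, with 559 genes, 3.89%, at an unadjusted p under 0.05). That number was 262 without medium mDP mouse 3, 981 without medium mDP mouse 4 and 858 without medium mDP mouse 5.

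**Figure D1:**
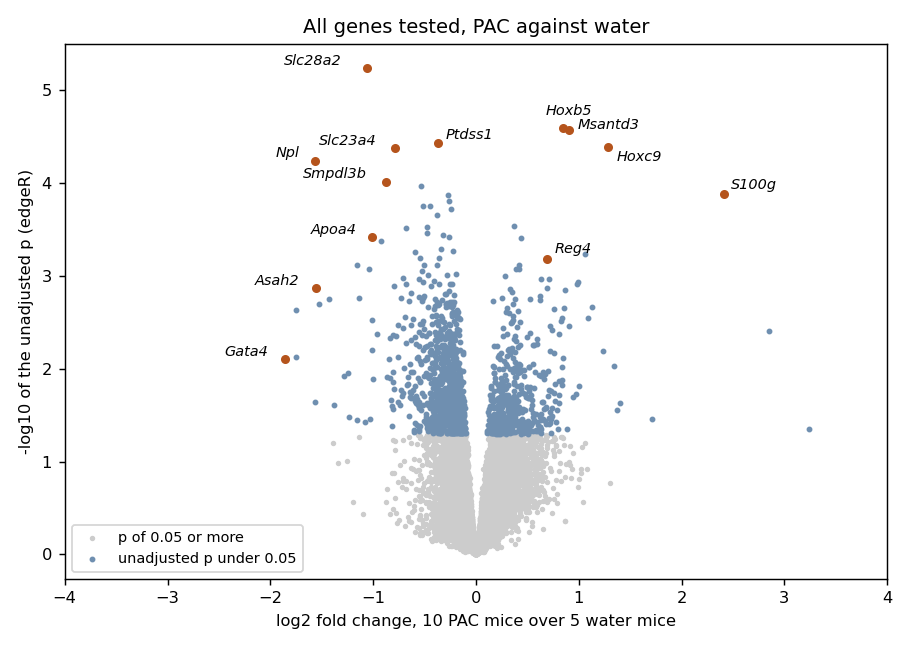
Each point is 1 of the genes tested, with the log2 fold change of the 10 PAC mice over the 5 water mice on the x axis and -log10 of the unadjusted edgeR p on the y axis. Slc28a2 lies highest, at a log2 fold change of -1.06 ± 0.16, and S100g lies far to the right at 2.41 ± 0.49. The 2 genes beyond a log2 fold change of 4, Gm1987 and Tmem254b, are not drawn.

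A set of 3 libraries stood apart and was kept. On the second principal component (13.9% of the variance) water mice 1 and 3 lay away from the other 13 mice, and on the first (26.2%) medium mDP mouse 3 lay away. Water mice 1 and 3 had the lowest sums of smooth muscle markers, 382 and 337 FPKM against 678 to 1280 FPKM in the other mice. They also had the lowest sums of enteric neuron and glia markers, 20.5 and 17.9 FPKM against 33.6 to 57.4 FPKM. Without both of them the genes with an unadjusted p under 0.05 numbered 562, 260 higher (1.81%) and 302 lower (2.1%). There were 911 without water mouse 1 alone (2.18% higher, 4.15% lower) and 833 without water mouse 3 alone (1.82% higher, 3.97% lower). Without medium mDP mouse 3, 4.98% of all genes were higher and 5.68% lower. Peyer patch B cell markers summed to 92.1 to 303 FPKM in 7 of the mice (3 water, 2 low mDP and 2 medium mDP) and to 7.86 to 13.1 FPKM in the others, so that high and low values occurred in every group. In such tissue pieces, fewer cells of a type and less RNA per cell cannot be told apart.

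**Figure D2:**
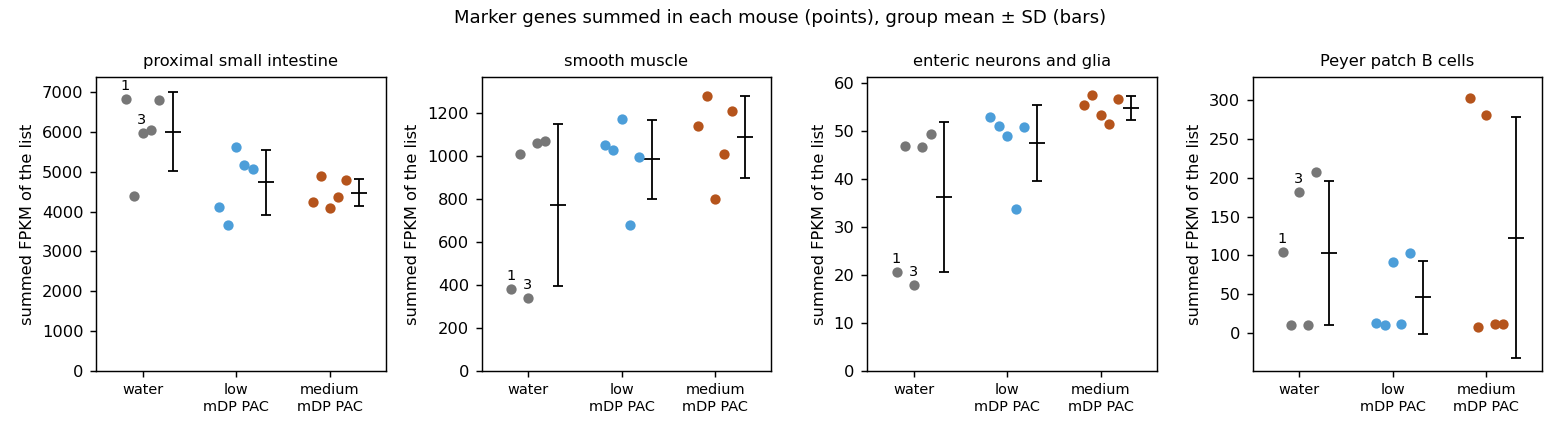
Summed FPKM of the marker genes of 4 tissue components in each mouse (points), with the mean ± SD of each group of 5 mice (bars). Water mice 1 and 3, numbered, lie lowest for smooth muscle (382 and 337) and for neurons and glia (20.5 and 17.9), and the proximal small intestine markers lie between 4400 and 6840 in water mice and between 3670 and 5630 in PAC mice.

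The lead gene encodes a nucleoside transporter. Slc28a2 (chromosome 2, 122426357 to 122461152, GRCm38) is the sodium-driven carrier that takes up purine nucleosides at the enterocyte brush border. Its FPKM was 52.3, 49.7, 48.7, 49.8 and 65.7 in the water mice. It was 27.4, 43.4, 21.1, 34.4 and 27.6 in the low mDP PAC mice and 21.1, 21, 25.1, 26.4 and 18.9 in the medium mDP PAC mice. The highest PAC mouse lay below the lowest water mouse. The PAC mice together held 0.478 of the water level (log2 fold change -1.06 ± 0.16 SE, edgeR adjusted p = 0.0831, DESeq2 adjusted p = 5.3e-06). The two-sided exact permutation p was 0.000666, the smallest that 10 against 5 mice allow. The log2 fold change over water was -0.83 ± 0.16 with low mDP and -1.34 ± 0.16 with medium mDP PAC. The lowest and highest values with 1 mouse left out were -1.18 and -1.0, and it was -1.09 without water mice 1 and 3. Gm14085, a close copy that could share reads with it, was listed at 0 to 0.44 FPKM.

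Slc23a4, a sodium-dependent carrier of nucleobases such as uracil and hypoxanthine, was lower too. Its FPKM was 12.4, 8.97, 12.2, 12.5 and 15.4 in the water mice. It was 7.76, 9.32, 7.81, 10.2 and 7.82 in the low mDP PAC mice and 5.43, 6.89, 6.29, 6.94 and 6.11 in the medium mDP PAC mice. Of the 10 PAC mice, 8 lay below every water mouse, the 5 medium mDP mice among them (log2 fold change -0.79 ± 0.14, edgeR adjusted p = 0.101, DESeq2 adjusted p = 0.000844). The values over water were -0.57 ± 0.13 with low mDP and -1.05 ± 0.13 with medium mDP PAC. A list of 12 tested nucleoside and nucleobase carriers also held the vitamin C carrier Slc23a1. Of the 12, 5 had an unadjusted p under 0.05 and a lower level with PAC, against a background of 7.08%, and 0 had a higher one. Slc28a2 and Slc23a4 are among the 5 and were known from earlier results of these data. The other 3 included Slc28a1 (log2 fold change -1.08, mean FPKM 3.09 and 1.54 with water and PAC). They also included the broad nucleoside carrier Slc28a3 (-0.32 ± 0.12, 5.11 ± 0.80 against 4.29 ± 0.72 FPKM) and the vitamin C carrier Slc23a1 (-1.23 ± 0.53, 4.04 ± 2.44 against 1.81 ± 1.35 FPKM). The equilibrative carriers Slc29a1 (0.10 ± 0.09) and Slc29a2 (0.07 ± 0.13) had no unadjusted p under 0.05, and the median of the 12 was -0.05, against -0.005 over all genes. The number with an unadjusted p under 0.05 and a lower level was also 5 without water mice 1 and 3, but 3 without medium mDP mouse 3, 3 with the replicate number as a block and 3 by limma.

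Enzymes of the purine path were mixed. Of 20 tested members, 4 were lower and 2 higher at an unadjusted p under 0.05 (7.08% lower and 3.38% higher over all genes), with a median log2 fold change of 0.01. The lower ones convert nucleotides and purines to be salvaged or broken down. They were the 5'-nucleotidase Nt5e (-0.59 ± 0.14, edgeR adjusted p = 0.285), adenosine deaminase Ada (-0.71 ± 0.18, 75.6 ± 23.6 against 48.6 ± 11 FPKM), guanine deaminase Gda (-0.64 ± 0.20, 150 ± 30.7 against 101 ± 26.9 FPKM) and xanthine dehydrogenase Xdh (-0.40). The GMP reductase Gmpr (0.56) and the urate oxidase Uox (0.78) were higher, though neither had an unadjusted p under 0.05 without water mouse 3.

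**Figure D3:**
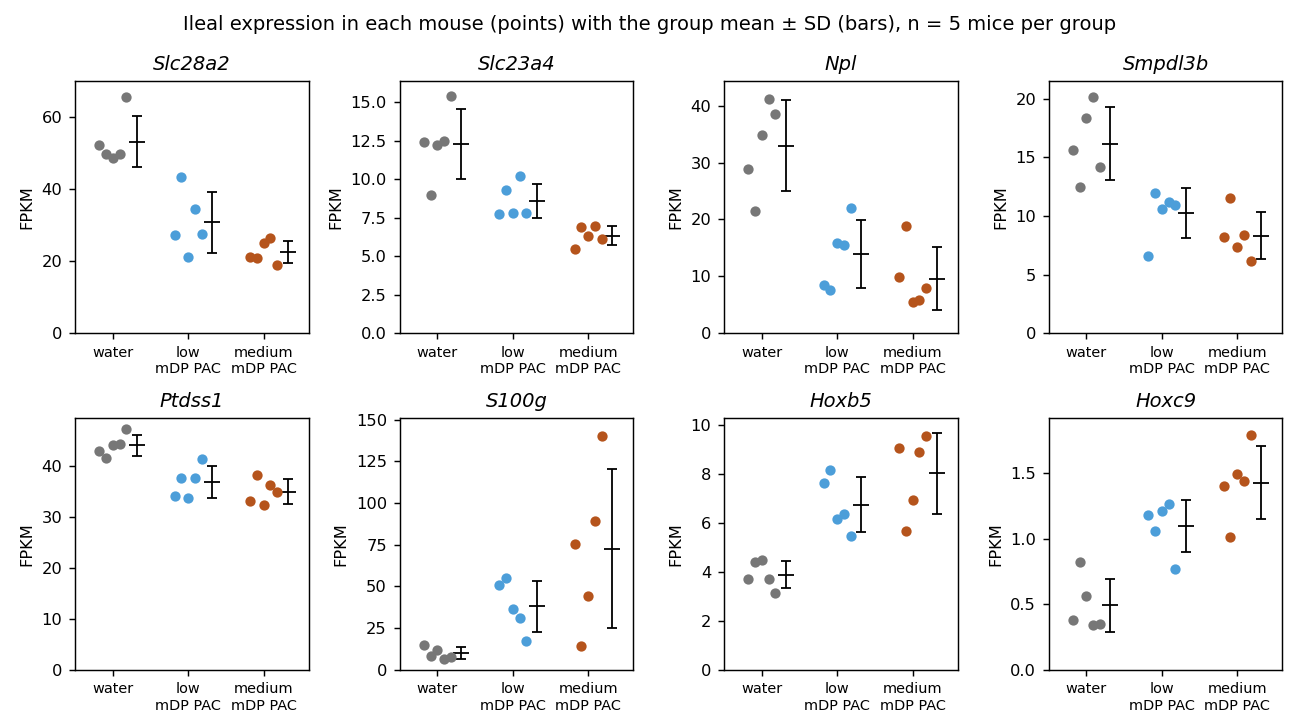
FPKM of 8 genes in each of the 15 mice, with the mean ± SD of each group of 5 mice. For Slc28a2, Smpdl3b and Ptdss1 the 10 PAC mice lie below the 5 water mice, for Hoxb5 they lie above, and for Slc23a4, Npl, S100g and Hoxc9 the groups overlap in 1 or 2 PAC mice.

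S100g had the largest log2 fold change among the 20 genes with the smallest p, once predicted genes (symbols such as Gm with a number) were left out. It encodes calbindin-D9k, the calcium-binding protein that ferries absorbed calcium through the enterocyte, a textbook target of the vitamin D receptor. Its FPKM was 15.1, 8.03, 11.6, 6.2 and 7.8 in the water mice. It was 50.7, 54.8, 36.6, 30.8 and 17.3 in the low mDP PAC mice and 75.4, 14, 44, 89.3 and 140 in the medium mDP PAC mice. Every low mDP mouse and 4 of the 5 medium mDP mice lay above the highest water mouse, and medium mDP mouse 2, at 14 FPKM, lay among the water mice. The PAC mean was 5.33 times the water mean in the fit (log2 fold change 2.41 ± 0.49, edgeR adjusted p = 0.175, DESeq2 adjusted p = 0.000671). The exact permutation p was 0.00133. It was 1.91 ± 0.49 with low mDP and 2.79 ± 0.49 with medium mDP PAC, with medium less low in the interval from -0.10 to 1.85. The other calcium genes lay closer to the water mice. Of 9 tested members of calcium absorption and vitamin D, S100g was the 1 higher and the claudin Cldn15 (-0.23 ± 0.10) the 1 lower at an unadjusted p under 0.05 (7.08% lower and 3.38% higher over all genes). There were 2 higher without water mouse 1, without water mice 1 and 3, with upper-quartile normalization or by limma. None of the 9 was lower at that p without water mouse 1, water mouse 3 or medium mDP mouse 3. The vitamin D receptor Vdr was at 110 ± 8.31 against 108 ± 12.6 FPKM and the basolateral calcium pump Atp2b1 at 72.4 ± 15.8 against 82.4 ± 15.8 FPKM. Both the apical channel Trpv6 and the vitamin D-degrading Cyp24a1 lay at 0 to 0.04 FPKM in every mouse.

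The 250 bases before the start site of S100g (RefSeq, GRCm38.p6, chrX:162964600-162964849, minus strand) are shown because this gene had the largest difference among the 20 genes named above. The capitals mark AGGTCA or its reverse complement, the half-site of many nuclear receptors, which was found on each strand and occurs in the same window of 14.0% of 32851 promoters.
S100g: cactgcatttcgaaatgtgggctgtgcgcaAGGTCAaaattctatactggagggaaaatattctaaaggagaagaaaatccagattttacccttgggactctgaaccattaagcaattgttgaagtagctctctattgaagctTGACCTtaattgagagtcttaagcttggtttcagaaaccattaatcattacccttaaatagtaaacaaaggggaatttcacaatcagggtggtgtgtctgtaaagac
Another 4 motifs, each searched on both strands, were not found in this window. For GATA factors the letters AGATAA were searched, which 9.99% of promoters hold. For HNF1 the letters were GTTAAT, which occur in the window of 6.43% of promoters. For CDX factors they were TTTATG, which occur in the window of 10.8% of promoters. For HNF4 they were CAAAGTCCA, held by 0.384% of promoters.

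Npl had the largest difference in the other direction among the same 20 genes. It encodes N-acetylneuraminate lyase, which cleaves the free sialic acid released from mucins and other glycans. Its FPKM was 28.9, 21.4, 34.9, 41.2 and 38.6 in the water mice. It was 8.49, 7.5, 15.8, 15.5 and 22 in the low mDP PAC mice and 9.94, 18.9, 5.4, 5.77 and 7.87 in the medium mDP PAC mice. The highest PAC mouse, low mDP mouse 5 at 22 FPKM, lay just above the lowest water mouse at 21.4 FPKM, and the other 9 lay below (log2 fold change -1.56 ± 0.29, edgeR adjusted p = 0.117, DESeq2 adjusted p = 0.00975). It was -1.31 ± 0.34 with low mDP and -1.88 ± 0.35 with medium mDP PAC. Of 14 tested genes of sialic acid metabolism, Npl and the sialate acetylesterase Siae (-0.23 ± 0.09) were lower and Renbp (0.42 ± 0.18) higher at an unadjusted p under 0.05 (7.08% lower and 3.38% higher over all genes), and the list median was 0.04. The 250 bases before its start (RefSeq, GRCm38.p6, chr1:153549715-153549964, minus strand), shown for comparison with S100g, held none of the 5 motifs.
Npl: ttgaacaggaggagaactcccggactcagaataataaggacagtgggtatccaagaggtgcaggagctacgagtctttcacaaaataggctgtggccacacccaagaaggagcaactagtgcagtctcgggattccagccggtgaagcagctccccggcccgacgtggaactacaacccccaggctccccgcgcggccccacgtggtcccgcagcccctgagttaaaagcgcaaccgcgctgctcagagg

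Genes of membrane lipid turnover were among the lead genes. Smpdl3b is a membrane-bound phosphodiesterase related to acid sphingomyelinase. Its FPKM was 15.6, 12.5, 18.4, 20.2 and 14.2 in the water mice. It was 6.61, 12, 10.6, 11.2 and 10.9 in the low mDP PAC mice and 8.2, 11.5, 7.39, 8.41 and 6.13 in the medium mDP PAC mice. All PAC mice lay below all water mice (log2 fold change -0.87 ± 0.17, edgeR adjusted p = 0.172, DESeq2 adjusted p = 0.00303). Sgpl1, the lyase that ends sphingosine-1-phosphate, had 79.9 ± 9.5 against 58.2 ± 8.38 FPKM (SD, n = 5 and 10) and 9 of 10 PAC mice below every water mouse (log2 fold change -0.53 ± 0.11, edgeR adjusted p = 0.172). The neutral ceramidase Asah2 of the brush border, which splits dietary ceramide, varied more (98.4 ± 50 against 34.9 ± 21.6 FPKM, log2 fold change -1.55 ± 0.41, edgeR adjusted p = 0.306). In 31 tested genes of sphingolipid synthesis and breakdown, a list added after these values were seen, 7 were lower and 1 higher at an unadjusted p under 0.05 (7.08% lower and 3.38% higher over all genes). The 7 include Smpdl3b, Sgpl1 and Asah2, which prompted the list. The counts were the same without water mice 1 and 3.

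Ptdss1, one of the pair of phosphatidylserine synthases, had a small difference with little spread. Its FPKM was 43, 41.6, 44.2, 44.3 and 47.3 in the water mice. It was 34.1, 37.7, 33.7, 37.6 and 41.4 in the low mDP PAC mice and 33.2, 38.3, 32.3, 36.2 and 34.9 in the medium mDP PAC mice. All 10 PAC mice lay below all 5 water mice at 0.775 of their level (log2 fold change -0.37 ± 0.07, edgeR adjusted p = 0.101, DESeq2 adjusted p = 0.000745). Its partner Ptdss2 was at 10.3 ± 0.37 against 11.2 ± 0.79 FPKM (log2 fold change 0.04 ± 0.06).

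Genes of lipid absorption, brush border hydrolases and carriers of sugars and amino acids had negative list medians, whereas those of calcium (-0.02), bile acid (-0.02), iron (-0.03) and zinc (-0.04) handling lay near 0. Those of the latter lists turned positive with upper-quartile normalization (0.01 to 0.04) and by limma (0.04 to 0.08). Of 24 genes of lipid absorption and lipoprotein assembly, 17 were lower and 0 higher at an unadjusted p under 0.05 (background 7.08% lower), with a median log2 fold change of -0.34. The apolipoprotein Apoa4 is secreted with chylomicrons. Its FPKM was 534, 213, 380, 387 and 604 in the water mice. It was 212, 137, 252, 237 and 368 in the low mDP PAC mice and 193, 232, 278, 137 and 166 in the medium mDP PAC mice. The groups overlapped, and 5 of 10 PAC mice lay below every water mouse (log2 fold change -1.01 ± 0.23, edgeR adjusted p = 0.233, DESeq2 adjusted p = 0.013). Npc1l1, the cholesterol uptake protein, separated all 10 PAC mice from all 5 water mice in FPKM (218 ± 27.9 against 138 ± 34.8 FPKM, log2 fold change -0.73 ± 0.20, edgeR adjusted p = 0.306), with medium mDP mouse 3 lowest at 51.4. The lipid droplet protein Plin3 (-0.33 ± 0.09), Apoa1 (-0.43 ± 0.12), the lipoprotein assembly factors Mttp (-0.46) and Apob (-0.48) and Abca1 (-0.53) were on the same side. Without water mice 1 and 3 the list held 8 lower members and a median of -0.27, and Plin3 was at -0.21.

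Brush border hydrolases cleave peptides and sugars at the enterocyte surface. All 22 tested hydrolases had a negative log2 fold change (median -0.38), 12 of them at an unadjusted p under 0.05 (background 7.08% lower). Ace, the peptidase also known from the renin system, had 164 ± 52.7 against 85.3 ± 28.6 FPKM (log2 fold change -1.04 ± 0.26, edgeR adjusted p = 0.306), and the nuclease Dnase1 had 16.5 ± 13.4 against 5.1 ± 3.69 FPKM (-1.75 ± 0.49). The peptidase Mep1b had 562 ± 69 against 468 ± 59.9 FPKM (-0.34 ± 0.12). Of 16 sugar and amino acid carriers, 9 were lower and 0 higher (background 7.08% lower), with a median of -0.37. The proton-coupled amino acid carrier Slc36a1 is one of the 20 genes with the smallest p when predicted genes are left out. Its FPKM was 9.38, 9.73, 11.7, 17.8 and 15.8 in the water mice. It was 8.26, 8.53, 8.88, 10.8 and 9.15 in the low mDP PAC mice and 8.45, 8.85, 5.41, 8.57 and 7.7 in the medium mDP PAC mice (log2 fold change -0.68 ± 0.15, edgeR adjusted p = 0.23). The glucose carrier Slc5a1 (458 ± 74.7 against 337 ± 65 FPKM, -0.52 ± 0.15), the peptide carrier Slc15a1 (243 ± 66.6 against 158 ± 49.8 FPKM, -0.70 ± 0.24) and the amino acid carrier subunit Slc3a2 (-0.28 ± 0.09) lay lower in the mean with overlapping groups. Without water mice 1 and 3 the medians were -0.31 and -0.30, with 8 and 5 lower members, and Mep1b was at -0.18. The hydrolases also had 8 without water mouse 3 alone. The lowest medium mDP mouse had 4130 FPKM of hydrolases against a median of 8730 FPKM in its group, and 841 against 1530 FPKM for the carriers. Without medium mDP mouse 3 the medians were -0.27 and -0.26, with 13 and 9 lower members.

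Several of these genes also mark the upper small intestine, and markers of position along the gut were measured too. Of 11 markers of proximal small intestine 7 were lower and 0 higher at an unadjusted p under 0.05 (median -0.71, background 7.08% lower). Without water mice 1 and 3 there were also 7 lower (median -0.65, with 2.1% of all genes lower). Slc40a1 (0.39) and Fabp1 (0.19) had a positive log2 fold change with all mice. All 11 markers stand in another list here, 5 of them in lipid absorption. Their summed FPKM was 4400 to 6840 in water mice (median 6040), 3670 to 5630 in low mDP mice and 4100 to 4890 in medium mDP mice. Of 8 markers of distal ileum 0 passed in either direction (median -0.02). There was 1 higher without water mouse 1, without water mouse 3, without medium mDP mouse 3, with upper-quartile normalization or by limma. Without water mice 1 and 3, 2 were higher (median 0.22). The bile acid-binding protein Fabp6 was at 4200 to 6830 FPKM with water and 5940 to 10600 FPKM with PAC. Gata4, a transcription factor of the upper intestine, is low in ileum. Its FPKM was 4.58, 1.69, 4.04, 12.5 and 12.7 in the water mice. It was 0.48, 0.91, 1.97, 6.23 and 4.19 in the low mDP PAC mice and 0.58, 4.23, 0.75, 0.72 and 0.39 in the medium mDP PAC mice. In every medium mDP mouse but mouse 2 it lay below all water mice (log2 fold change -1.85 ± 0.61, edgeR adjusted p = 0.367). Barx2 (6.72 ± 2.98 against 2.61 ± 1.5 FPKM, -1.43 ± 0.39) and Creb3l3 (-0.41 ± 0.16) were also lower at an unadjusted p under 0.05, as were 5 of 14 regional transcription factors in all (background 7.08% lower), against 2 without water mice 1 and 3. The share of the absorptive differences that goes with where along the ileum a piece was cut was not tested.

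**Figure D4:**
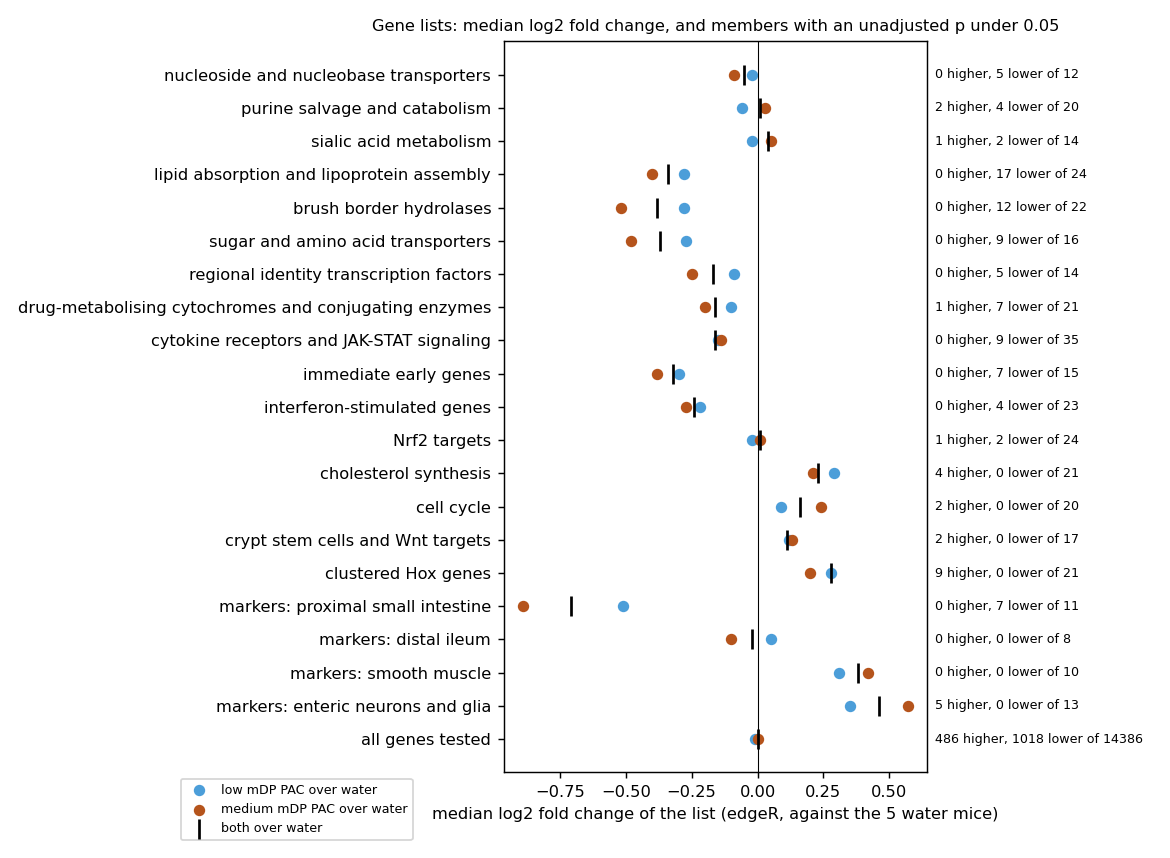
Median log2 fold change over the 5 water mice of 20 gene lists and of all genes tested, for low mDP PAC, medium mDP PAC and both pooled, with the number of members at an unadjusted p under 0.05 in the pooled comparison at the right. Lipid absorption, brush border hydrolases and sugar and amino acid carriers lie between -0.34 and -0.38, the proximal small intestine markers at -0.71, and the median of all genes at -0.005.

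Hox genes set position along the body axis. The FPKM of Hoxb5 was 3.71, 4.39, 4.46, 3.72 and 3.12 in the water mice. It was 7.62, 8.16, 6.14, 6.36 and 5.44 in the low mDP PAC mice and 9.06, 5.66, 6.94, 8.87 and 9.54 in the medium mDP PAC mice. Its highest water mouse (4.46) lay below its lowest PAC mouse (5.44), and PAC mice held 1.80 times the water level (log2 fold change 0.85 ± 0.15, edgeR adjusted p = 0.101, DESeq2 adjusted p = 5.66e-05). Hoxc9 was low (10 to 52 counts). Its FPKM was 0.38, 0.82, 0.56, 0.34 and 0.35 in the water mice. It was 1.18, 1.06, 1.21, 1.26 and 0.77 in the low mDP PAC mice and 1.4, 1.01, 1.49, 1.44 and 1.79 in the medium mDP PAC mice. There, 9 of 10 PAC mice lay above every water mouse (log2 fold change 1.28 ± 0.23, edgeR adjusted p = 0.101). Of 21 Hox genes tested, taken as a list only after Hoxb5 and Hoxc9 were seen, 9 were higher and 0 lower at an unadjusted p under 0.05 (background 3.38% higher), and 7 of these stand in the Hoxb cluster. They ran from Hoxb4 (0.43 ± 0.12) through Hoxb3 (0.71 ± 0.18), Hoxb7 (0.84 ± 0.28), Hoxb6 (0.81 ± 0.24) and Hoxb8 (0.99 ± 0.25) to Hoxb9 (1.23 ± 0.40), with Hoxc8 at 0.37 ± 0.11. Hoxb2, Hoxa and Hoxd members did not reach an unadjusted p under 0.05. Neighbouring Hox genes overlap with antisense and read-through transcripts, and whether the counting used strand is not given in the sources used here.

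Markers of the muscle wall and its nerves are given beside the Hox genes. All 13 tested neuron and glia markers had a positive log2 fold change (median 0.46), 5 of them at an unadjusted p under 0.05 (background 3.38% higher), among them S100b (0.72 ± 0.23) and Tubb3 (0.68 ± 0.28), and the 10 smooth muscle markers had a median of 0.38 with 0 past it. By limma on FPKM 9 of 13 and 5 of 10 were past it and higher, where 10.6% of all genes were. Water mice 2, 4 and 5 had smooth muscle sums of 1010, 1060 and 1070 FPKM, inside the 678 to 1280 FPKM of the PAC mice. The 5 neuron and glia markers were 2 without water mouse 1 (2.18% of all genes higher) and 1 without water mouse 3 (1.82%). Without both mice the medians were 0.02 and -0.08, with 0 of 13 at an unadjusted p under 0.05, and S100b and Tubb3 were at 0.33 and 0.19. All 8 adipocyte markers had a positive log2 fold change (median 0.60) with 0 at an unadjusted p under 0.05, and without water mice 1 and 3 all 8 were positive again (median 0.40). Their sums overlapped, at 72.3 to 312 FPKM with water, 98.3 to 350 FPKM with low mDP and 57.8 to 568 FPKM with medium mDP PAC. Without water mice 1 and 3 Hoxb5 was 0.93, Hoxc9 1.27 and Hoxb8 1.20, and 8 of 21 Hox genes had an unadjusted p under 0.05 (1.81% higher and 2.1% lower over all genes). Of the 21, 6 had a negative log2 fold change in that comparison, against 1 with all mice. The part of the muscle wall or of fat in the Hox values was not tested.

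**Figure D5:**
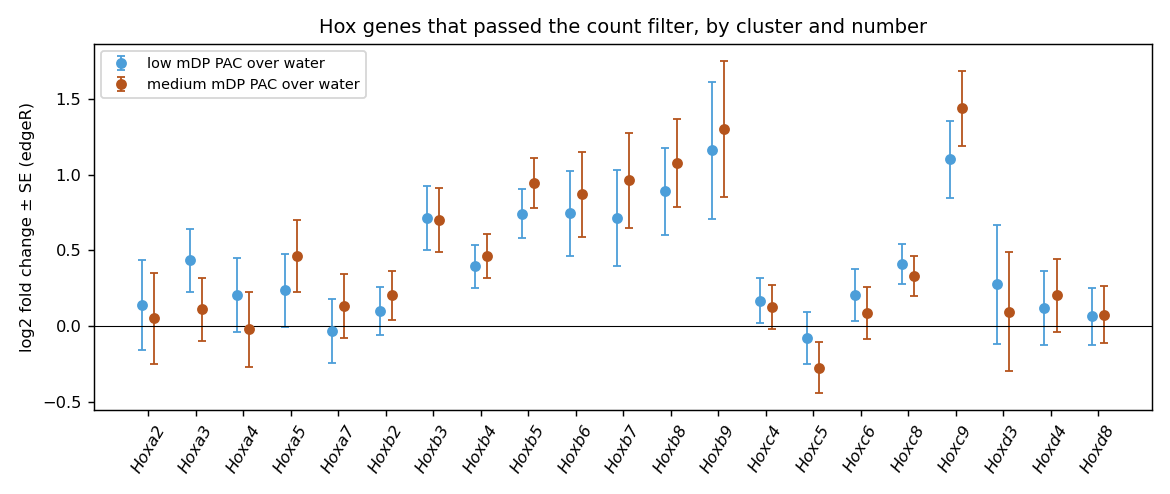
Log2 fold change over the 5 water mice, with its SE from edgeR, of the 21 Hox genes tested, for low mDP PAC and medium mDP PAC. From Hoxb3 to Hoxb9 both sizes lie above 0, from 0.39 (Hoxb4, low mDP) to 1.30 (Hoxb9, medium mDP), whereas most Hoxa and Hoxd genes lie near 0.

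Lists of immune and stress genes had negative medians, which lay nearer 0 or above it without water mice 1 and 3. Of 35 genes of cytokine receptors and JAK-STAT signaling 9 were lower and 0 higher at an unadjusted p under 0.05 (median -0.16, background 7.08% lower), with the kinase Pim1 (29 ± 4.62 against 22.6 ± 3.44 FPKM, -0.43 ± 0.11), Stat3 (-0.25 ± 0.10) and the interleukin-22 receptor Il22ra1 (-0.31 ± 0.13) among them. There were 4 without water mouse 1 or without water mouse 3, 1 without both (2.1% of all genes), and 1 by limma (2.46% of all genes). The chemokine Cxcl16 draws T cells. Its FPKM was 23.8, 18, 25.2, 22.8 and 18.3 in the water mice. It was 16.3, 18.3, 14.8, 16.5 and 13.9 in the low mDP PAC mice and 16, 13.8, 20.2, 16.1 and 14.1 in the medium mDP PAC mice (log2 fold change -0.51 ± 0.11, edgeR adjusted p = 0.182). Of 15 immediate early genes 7 were lower (median -0.32, background 7.08%), such as Fos (50.1 ± 17.9 against 29 ± 12.7 FPKM, -0.87 ± 0.31), Jun (-0.35 ± 0.13), Zfp36 (-0.32 ± 0.10) and Btg2 (-0.30 ± 0.09), and 0 of them without water mice 1 and 3, where Zfp36, Jun and Btg2 were at -0.20, -0.22 and -0.16. Of 14 genes of the epithelial oxidant and serum amyloid response 3 were lower (Nos2, Il18 and Il22ra1) and 0 higher at an unadjusted p under 0.05 (median -0.11, background 7.08% lower), and 4 had a positive log2 fold change (Saa1, Saa3, Lcn2 and Noxa1). Without water mouse 3, 1 was lower and the median was -0.01. Nos2 encodes inducible nitric oxide synthase. Its FPKM was 47.9, 32.9, 70.3, 78.1 and 62.5 in the water mice. It was 25.1, 78.4, 23.4, 27.5 and 15.5 in the low mDP PAC mice and 29.6, 13.4, 13.9, 64.6 and 6.3 in the medium mDP PAC mice, so that low mDP mouse 2 and medium mDP mouse 4 did not lie below the water mice (-1.03 ± 0.45, edgeR adjusted p = 0.465). The epithelial cytokine Il18 lay below every water mouse in 8 of 10 PAC mice and above every one in low mDP mouse 2 (-0.56 ± 0.20, edgeR adjusted p = 0.402), and leaving that mouse out brought it to -0.75 and past the threshold (adjusted p = 0.0481). Of 23 interferon-stimulated genes 4 were lower (median -0.24, background 7.08%), among them Cxcl10 (-0.66 ± 0.24, but -0.33 without water mouse 3), against 1 without water mouse 1 and 0 without water mouse 3. Of 8 MHC class II markers 3 were lower (background 7.08%), Cd74 (-0.46 ± 0.19, but -0.29 without water mouse 3) among them, with 0 lower without either water mouse 1 or water mouse 3 and 5 without medium mDP mouse 3 (median -0.45). The list median of -0.41 was -0.07 without both. Markers of immune cells are given beside these lists. All 11 T cell markers (median -0.25, 1 at an unadjusted p under 0.05), all 13 Peyer patch B cell markers (-0.43, 0) and 7 of 8 plasma cell markers (-0.24, 2) had a negative log2 fold change, as had 8 of 12 macrophage markers (-0.06, 1, with a median of 0.01 by limma). The B cell median over water was -1.18 with low mDP and 0.09 with medium mDP PAC, and the pooled one was -0.76 without medium mDP mouse 3 and -0.09 without water mouse 3. Without water mice 1 and 3 the T, B and plasma cell medians were 0.08, 0.08 and -0.07, and that of the interferon-stimulated genes was 0.04. The part of immune cell number in these values was not tested.

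Cholesterol synthesis had 4 of 21 members higher and 0 lower at an unadjusted p under 0.05 (median 0.23, background 3.38% higher), among them the synthesis enzymes Nsdhl (0.29 ± 0.11), Dhcr7 (0.23 ± 0.10) and Cyp51 (0.33 ± 0.15). Without water mouse 5, Nsdhl and Cyp51 were each at 0.19 and Dhcr7 was at 0.16. In limma on FPKM there were 11 (10.6% of all genes), with upper-quartile normalization (6.04%) or the replicate number as a block (3.23%) 9, and without water mice 1 and 3 there were 3 (1.81%). Reg4, a secreted lectin of enteroendocrine and goblet cells, was higher. Its FPKM was 61.6, 51.7, 35.5, 72.9 and 85.4 in the water mice. It was 103, 80.7, 78, 109 and 83.2 in the low mDP PAC mice and 111, 115, 138, 96.6 and 131 in the medium mDP PAC mice (log2 fold change 0.69 ± 0.17, edgeR adjusted p = 0.292, DESeq2 adjusted p = 0.0167), with every medium mDP mouse above the water range. Of the 17 Reg genes and antimicrobial proteins tested Reg4 was the 1 higher at an unadjusted p under 0.05 and 0 were lower, but 2 were lower by limma and 4 without water mice 1 and 3 (median -0.22). Reg3g ran from 241 to 5720 FPKM in PAC mice and from 940 to 3290 FPKM in water mice. Proglucagon Gcg, the source of GLP-1 in ileal L cells, was higher in all 10 PAC mice than in all 5 water mice in FPKM. It was at 43.9, 40.4, 35.6, 37.8 and 39.1 in the water mice, 48.9, 46.2, 48, 64.6 and 46.8 in the low mDP PAC mice and 48.5, 46.1, 82.2, 53.6 and 57.7 in the medium mDP PAC mice (log2 fold change 0.39 ± 0.12, edgeR adjusted p = 0.333). Somatostatin Sst was at 37.1 ± 2.71 against 49.1 ± 11.2 FPKM (0.33 ± 0.14). Of 13 enteroendocrine markers 2 were higher and 2 lower at an unadjusted p under 0.05 (7.08% lower and 3.38% higher over all genes). All 20 tested cell cycle genes had a positive log2 fold change (median 0.16), 2 of them at an unadjusted p under 0.05 (background 3.38% higher) and 0 without water mouse 1 or 3. There were 5 with upper-quartile normalization, 5 by limma and 4 with the replicate number as a block (6.04%, 10.6% and 3.23% of all genes).

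With predicted genes left out, most of the remaining genes among the 20 with the smallest p differed by little with small spread. Msantd3 is a gene of little known function (15 to 50 counts). Its FPKM was 0.71, 0.68, 0.56, 0.92 and 0.89 in the water mice. It was 1.52, 1.25, 1.38, 1.89 and 1.08 in the low mDP PAC mice and 1.33, 1.64, 1.88, 1.57 and 1.33 in the medium mDP PAC mice, with all 10 PAC mice above all 5 water mice (0.91 ± 0.16, edgeR adjusted p = 0.101). The protein kinase A anchoring protein Gskip (-0.27 ± 0.06), the coat protein Sec24d of vesicles from the endoplasmic reticulum (-0.45 ± 0.09) and the peptidase Xpnpep1 (-0.48 ± 0.11) were lower. So were the sorting nexin Snx25 (-0.38 ± 0.08), Igsf23 (-0.47 ± 0.10), Zkscan3, a repressor of autophagy genes (-0.26 ± 0.05) and Fam234a (-0.24 ± 0.05). The centrosome protein Kiz (0.37 ± 0.08) was higher. Their adjusted p-values lay between 0.175 and 0.233.

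The Nrf2 targets of the antioxidant response went both ways, whereas more of the drug-metabolising enzymes were lower than higher. Of 24 Nrf2 targets 1 was higher, the glutathione transferase Gsta4 (0.38 ± 0.14), and 2 were lower, among them the reductase Gsr (-0.24 ± 0.10), with a median of 0.01 (7.08% lower and 3.38% higher over all genes). The target Nqo1 was at 8.24 ± 0.77 against 9.63 ± 1.18 FPKM and Hmox1 at 2.28 ± 0.65 against 2.06 ± 0.42 FPKM. There was 1 lower Nrf2 target without water mouse 1, water mouse 3, both of them or medium mDP mouse 3, and 0 with upper-quartile normalization or by limma. Higher ones numbered 3 by limma and 2 without water mice 1 and 3. Of 8 genes of the aryl hydrocarbon receptor 1 was lower (background 7.08%) and 0 without water mouse 1 or water mouse 3, and Cyp1a1 lay at 0 to 0.11 FPKM. Of 21 drug-metabolising enzymes 7 were lower and 1 higher (median -0.16, against 7.08% and 3.38% of all genes), with 4 lower without water mouse 1 and 3 without water mouse 3. Among them were Cyp2b10, a textbook target of the xenobiotic receptor CAR, at 2.5 ± 2.36 against 0.78 ± 0.63 FPKM (-1.75 ± 0.57), Cyp3a13 at 198 ± 18.5 against 149 ± 35.7 FPKM (-0.48 ± 0.15) and Cyp3a11 at -1.01 ± 0.32, of which -0.49 was left without water mouse 5, its highest. Clock genes, bile acid transport and zinc transporters had 0 members at an unadjusted p under 0.05. Clock genes were also at 0 in the alternatives run on the lists. Bile acid transport had 1 higher without water mouse 1, without water mouse 3, without medium mDP mouse 3, with upper-quartile normalization or by limma. It had 2 without water mice 1 and 3 (median 0.27). Zinc transporters had 2 higher without water mouse 1, without water mice 1 and 3, with upper-quartile normalization, with the replicate number as a block or by limma. They had 1 higher and 1 lower without medium mDP mouse 3. The bile acid carrier Slc10a2 was at 224 ± 101 against 254 ± 62.2 FPKM and the hormone Fgf15 at 116 ± 41.3 against 121 ± 47.8 FPKM.

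Both sizes were measured against the same 5 water mice, so their values over water are given side by side and only medium less low mDP PAC was tested. For Slc28a2 medium less low mDP PAC was -0.50 on the log2 scale (95% interval -0.85 to -0.16) and for Slc23a4 -0.48 (-0.76 to -0.19), but over all genes neither passed (adjusted p = 0.896 for both). For S100g, Npl, Smpdl3b, Ptdss1, Hoxb5 and Msantd3 the interval held 0, from -0.10 to 1.85 for S100g to -0.28 to 0.05 for Ptdss1, so that no difference between the sizes was detectable and differences inside these bounds remain possible.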

How the data were processed

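RNA-seq of ileum from 15 mice (5 water, 5 low mDP PAC, 5 medium mDP PAC) was analysed from 1 table per mouse. The authors cleaned the reads with SOAPnuke, mapped them to mm10 (GRCm38) with Bowtie2 by the methods, and the submitters' processing notes also name HISAT and DESeq2. The counting tool is not given in the sources used here. The deposited expected counts are estimated fragments per gene and not normalized, and the deposited FPKM divide the fragments by gene length and library size. Expected counts summed to 15963086 to 17903886 per mouse, and a gene missing from a table was given 0. At this depth the spread between mice limits the precision except in low genes.

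Groups came from the sample labels. After rounding, the expected counts went into edgeR 4.0.16 in R 4.3.3 (TMM, quasi-likelihood, filterByExpr), PAC against water, over 14386 of 17752 genes, with Benjamini-Hochberg adjustment over all of them. A 3-group model gave the values of each size. Alternatives used DESeq2 1.42.0, limma 3.58.1, other scalings and filters, a replicate block and each mouse left out. FPKM served for levels, and single genes were compared by exact permutation of log2(FPKM + 0.1) with scipy 1.17.1. Errors beside log2 fold changes are SE and those beside FPKM are SD (n = 5 water and 10 PAC mice).

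The named genes are the 20 with the smallest p once predicted genes (Gm, LOC or Rik symbols) are left out. Added to them were up to 4 members of each list with the smallest p, S100g, Slc28a2, Slc23a4 and Npl. Xdh, Uox, Slc28a1, Abca1, Mttp, Apob, Slc29a1, Slc29a2, Vdr, Atp2b1, Trpv6, Cyp24a1, Ptdss2, Nqo1, Hmox1, Cyp1a1, Slc10a2, Fgf15, Reg3g, Gm14085 and the further Hox genes were named after their values were seen. Members and lists were chosen with earlier results of these data known. Gene coordinates and promoters are those of GRCm38, with the promoters from RefSeq. The methods were tested on simulated data. The values of 1 gene of the named set are not reported here.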

Additional observations from a re-analysis of the deposited data

Results flagged for a closer look

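Among the 67 genes followed, 16 of 201 groups of 5 mice held 1 mouse far from the other 4, by a gap over 0.71 of the range of log2(FPKM + 0.1). Chance flags about 1 in 20 groups. Of these, 5 were in medium mDP mouse 3. Kiz in medium mDP mouse 1 was at 6.14 FPKM against 7.16 to 7.26 FPKM in the other 4. Dnase1 in medium mDP mouse 2 was at 11 FPKM against 2.41 to 3.49 FPKM in the other 4. Gata4 in medium mDP mouse 2 was at 4.23 FPKM against 0.39 to 0.75 FPKM in the other 4. Sec24d in medium mDP mouse 3 was at 23.3 FPKM against 32 to 35.1 FPKM in the other 4. Slc36a1 in medium mDP mouse 3 was at 5.41 FPKM against 7.70 to 8.85 FPKM in the other 4. Siae in medium mDP mouse 3 was at 11.5 FPKM against 15.6 to 17.3 FPKM in the other 4. Npc1l1 in medium mDP mouse 3 was at 51.4 FPKM against 121 to 146 FPKM in the other 4. Slc3a2 in medium mDP mouse 3 was at 54.1 FPKM against 73.5 to 82.8 FPKM in the other 4. Smpdl3b in low mDP mouse 1 was at 6.61 FPKM against 10.6 to 12 FPKM in the other 4. Xpnpep1 in low mDP mouse 1 was at 147 FPKM against 162 to 164 FPKM in the other 4. Il18 in low mDP mouse 2 was at 39.8 FPKM against 15.1 to 18.9 FPKM in the other 4. Gsta4 in low mDP mouse 4 was at 57 FPKM against 30.5 to 36.1 FPKM in the other 4. Gcg in low mDP mouse 4 was at 64.6 FPKM against 46.2 to 48.9 FPKM in the other 4. Sst in low mDP mouse 5 was at 31.1 FPKM against 48.1 to 52.1 FPKM in the other 4. Slc28a2 in water mouse 5 was at 65.7 FPKM against 48.7 to 52.3 FPKM in the other 4. Cyp3a11 in water mouse 5 was at 57.8 FPKM against 14.4 to 21 FPKM in the other 4. No gene was called as different between medium and low mDP PAC (edgeR, 559 at an unadjusted p under 0.05, 262 without medium mDP mouse 3, 981 without medium mDP mouse 4 and 858 without medium mDP mouse 5).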

How the results depend on the processing

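Counts of genes past an adjusted p of 0.05 for PAC against water moved from 0 to 41 (15 higher, 26 lower) with DESeq2 without its filter and 42 (13 higher, 29 lower) with it, to 4 (3 higher, 1 lower) with limma on log2(FPKM + 0.1) and on log2(FPKM + 1), and to 2 (both lower) with the mean of both PAC coefficients of a 3-group model. They stayed at 0 with upper-quartile or DESeq2 size factors in edgeR, no filter, a filter of 10 counts in 5 mice and the robust option. With 1 mouse left out the count ran from 0 to 7 (0 to 3 higher, 0 to 4 lower), with 2 without low mDP mouse 2 and 7 without low mDP mouse 5. Genes at an unadjusted p under 0.05 ran from 833 to 1669 with 1 mouse left out, with 911 without water mouse 1 and 833 without water mouse 3. Without both, an alternative chosen after seeing the data, there were 562. The cause of these shifts was not tested. Genes without overlap between PAC and water mice ran from 42 to 161 with 1 mouse left out, since fewer mice part more easily, and they were 161, 131 and 84 without water mouse 2, 5 and 4 and 61 to 86 without low mDP mouse 2, 3, 4 or 5, against 40 with all mice. The share of variance ran from 10.1% to 13.2%. It was 11.7% (exact permutation p = 0.0673) without scaling the genes and 11.1% (exact permutation p = 0.133) over the 500 most variable ones, and without water mouse 1, 3 or 4 the exact permutation p was 0.119, 0.131 or 0.0549. Medium against low mDP PAC gave 0 genes in every alternative run. Of 1809 refits of the log2 fold changes of 67 genes, 0 turned the sign and 69 passed the threshold where the main value did not. Most of the 67 were picked for a small p, which makes a turned sign unlikely. With the replicate number as a block, 0 genes passed and 1313 had an unadjusted p under 0.05. What the numbers stand for is not given in the labels. The mean correlation of same-numbered mice was 0.128, 0.123 and -0.147 for the 3 pairs of groups. For mice of other numbers it was -0.032, -0.032 and 0.038, and 2 of 15 mice correlated best with their own number. With 5 same-numbered pairs for each pair of groups, these values cannot settle whether the numbers mark a batch. Low genes such as Hoxc9 (10 to 52 counts) carry counting error beside the spread between mice.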

Other observations

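Secretory, crypt and housekeeping genes are given by their counts at an unadjusted p under 0.05, where 3.38% of all genes were higher and 7.08% lower. Goblet cell markers had 1 of 10 members higher at an unadjusted p under 0.05 (Klk1), and Paneth and tuft cell markers had 0 of 10 and 0 of 7. Without water mice 1 and 3, 2 Paneth cell markers were lower. Crypt stem cell and Wnt genes had 2 of 17 higher, 5 without medium mDP mouse 3, 4 with upper-quartile normalization, 7 by limma and 0 without water mouse 3, and Lgr5, the stem cell receptor, was at 8.19 ± 1.22 FPKM with water and 9.92 ± 1.18 FPKM with PAC. Without water mice 1 and 3, 0 goblet and 0 of these crypt genes were higher. The 74 cytosolic ribosomal proteins had 0 called genes and a median log2 fold change of 0.08, and the 54 subunits of the respiratory chain and ATP synthase had 1 higher, but 6 without medium mDP mouse 3, 5 with upper-quartile normalization and 10 by limma. Without medium mDP mouse 3, 39 of the 74 ribosomal proteins had a negative log2 fold change, against 0 with all mice.

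Tight junction genes had 3 of 17 lower, iron absorption 3 of 13 and the unfolded protein and heat shock response 2 of 20, against 7.08% lower over all genes. Tight junctions had 1 lower without water mouse 1, water mouse 3 or medium mDP mouse 3. Iron absorption had 1 without water mouse 3, and the unfolded protein response had 0 without water mouse 1 and 0 by limma. Among PPARa targets and fatty acid oxidation, 1 of 18 was higher and 1 lower. The higher one was Cyp4a10, a fatty acid omega-hydroxylase, at 0.112 ± 0.114 FPKM with water and 0.852 ± 0.769 FPKM with PAC (0 to 93 counts, log2 fold change 2.85 ± 0.85, edgeR adjusted p = 0.329), and its groups overlapped. In this list 0 were lower with upper-quartile normalization, by limma, with the replicate number as a block or without water mouse 1 or 3. Higher members numbered 2 with upper-quartile normalization, by limma or without medium mDP mouse 3. Plasma cell markers had 2 of 8 lower, T cell markers 1 of 11 and macrophage markers 1 of 12, whereas mesothelium markers had a median of 0.76 with 0 of 9 at an unadjusted p under 0.05 and 5 of 9 by limma. Their mean log2 level was lowest in water mice 1 and 3 (-1.47 and -1.42 relative to the water mean), and the median was 0.45 without mouse 1, 0.46 without mouse 3 and 0.10 without both. Of the erythrocyte markers 0 of 5 tested had an unadjusted p under 0.05 (median 0.36), and 1 of the exocrine pancreas markers was tested, at 0.02.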
